A study of Mus musculus with 8 samples.

Results

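The genes described here move sterols out of cells, take them up or set how much of either a cell does, and were chosen by name: Abcg5, Abcg8, Abca1, Abcg1, Npc1l1, Soat2, Scarb1, Mylip and Arl4c. The array held 11 probes for these 9 genes, of 25697 probes in all, since Soat2 and Mylip had 2 probes each and the others 1. RNA was measured in 4 ileal tumours of APCmin/+/VP16LXRa mice and 4 ileal tumours of APCmin/+/VP16 mice, the controls. All animals carried the Apc Min allele, a truncating mutation of a Wnt pathway brake that gives rise to intestinal tumours, and all were 8 months old and of a mixed C57BL/6J and FVBN strain. The VP16LXRa animals carried liver X receptor alpha (LXRα) joined to VP16, a viral transactivation domain that keeps the receptor active without its ligand, and the controls carried VP16 alone. The labels name no promoter that drives the transgenes. Nothing in the labels says whether each array is a separate animal, so p-values measure only the spread between these samples. Tumours numbered 5 to 8 are VP16LXRa and those numbered 1 to 4 are controls.

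LXRs are nuclear receptors that sense oxidised cholesterol and switch on genes that lower the sterol load of a cell. In enterocytes, the absorptive cells of the gut, cholesterol enters across the brush border through Npc1l1, is esterified by Soat2 for packing into lipoproteins, or is pumped back into the gut lumen by the heterodimer of Abcg5 and Abcg8. Abca1 and Abcg1 hand cholesterol to HDL on the other side of the cell and in macrophages, Scarb1 takes up lipid from HDL, Mylip is a ubiquitin ligase that limits lipoprotein uptake, and Arl4c is a small GTPase linked to cholesterol transport towards Abca1. Abcg5, Abcg8, Abca1, Abcg1, Mylip and Arl4c are known LXR targets.

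Of the 9 genes, 4 (Abcg5, Abcg8, Npc1l1 and Soat2) had a probe detected on all 8 arrays, where detected means a detection p under 0.05, set by the negative control beads of that array. Abcg1 and Arl4c were each detected on 6 arrays, Abca1 on 1, and Scarb1 and both Mylip probes on none. Testing was limited to probes detected on at least 4 arrays, here 7 probes of 6 genes. Levels are log2 intensities after background correction and quantile normalization, and differences are VP16LXRa minus control on that scale, where 1 is a doubling.

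Between 49.0% and 54.7% of probes were detected per array, with a median signal from 134 to 165. VP16LXRa 5 had the lowest share and stood apart from the rest, with a median correlation of 0.927 with the other arrays, against 0.952 to 0.967 for the other 7. Without it the differences given below were 1.66 for Abcg8, 1.17 for Abcg5, 0.55 for Npc1l1, 0.72 and 0.86 for the 2 Soat2 probes, -0.73 for Arl4c and -0.48 for Abcg1, and 0 of the 7 probes passed the threshold.

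No probe of these genes passed the adjusted threshold of 0.05 (0 of 7 tested, limma with Benjamini-Hochberg adjustment over all 13426 tested probes). Across the array 0 of 13426 probes (0%) passed, and 2.5% had an unadjusted p under 0.05, which 0 of the 7 had. The groups overlapped for all 7, against 1.74% of tested probes whose groups did not overlap. In VP16LXRa tumours 4 of the 6 tested genes averaged higher and 2 lower. Their median log2 difference was 0.48, while 50.2% of all tested probes were higher and their median was 0.0018. Without control 4 the median of the 6 genes was -0.0059, and without control 2 it was 0.90.

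Abcg5 and Abcg8 lie next to each other on chromosome 17 and are transcribed away from each other. The stretch between their RefSeq starts is shown because both genes share it. Their levels moved together from tumour to tumour, as described below, and whether the stretch has a part in that was not tested. The stretch covers 109 bases at chr17:84683012-84683120 (GRCm38.p6, plus strand, from RefSeq), and the table lists a further Abcg8 start upstream, within Abcg5. Capitals mark TTATCT, the letters of a GATA box on the minus strand.
Abcg5-Abcg8: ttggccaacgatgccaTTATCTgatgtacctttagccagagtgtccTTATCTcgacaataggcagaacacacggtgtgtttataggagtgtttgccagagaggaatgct
The stretch holds 2 such matches. The box, searched as AGATAA on both strands, was found in 11.2% of the 32851 promoter windows in the table, each of 300 bases (250 before and 50 after a start). For this group 7 windows of 6 genes were found (Abcg8 had 2, and Abcg1, Soat2 and Scarb1 had none). Of these windows 2 held the box, that of Abcg5 and 1 of those of Abcg8, and these 2 windows share the stretch printed above. The element that LXR binds with its partner RXR is known as DR4. With both repeats perfect (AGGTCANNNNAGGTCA, either strand) it was in 0 of the 7 windows and in 0.0152% of all windows. At that share a match in 7 windows was very unlikely, and DR4 with imperfect repeats was not searched. The 0 therefore does not say whether these genes have an LXR element. A single repeat, AGGTCA, was in 1 of the 7 windows, that of Npc1l1, and in 16.3% of all windows. Binding was not measured, and a match or its lack describes only the letters of these windows.

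Abcg8, which needs Abcg5 to form the sterol pump, showed the largest difference of the 7 probes. It had log2 levels of 10.87, 11.76, 11.63 and 12.42 in VP16LXRa tumours 5 to 8, against 8.26, 11.35, 11.24 and 10.26 in control tumours 1 to 4. VP16LXRa tumours 6 to 8 lay above every control, and VP16LXRa 5 lay between the controls. The means were 11.67 ± 0.64 in VP16LXRa and 10.28 ± 1.43 in control tumours (SD, n = 4 each), a difference of 1.39 (SE 0.66, 95% interval -0.087 to 2.87). As a fold this is 2.62, with an interval from 0.941 to 7.30, and the adjusted p from limma was 0.998 (unadjusted p = 0.0622). Control 1 had the lowest level by far, and without it the difference was 0.72.

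Abcg5, the partner of Abcg8 in the pump, had log2 levels of 11.88, 13.19, 13.35 and 13.90 in VP16LXRa tumours 5 to 8, against 10.98, 13.09, 12.85 and 12.32 in control tumours 1 to 4. As for Abcg8, tumours 6 to 8 lay above every control and VP16LXRa 5 fell within the control range. The means were 13.08 ± 0.86 in VP16LXRa and 12.31 ± 0.94 in control tumours (SD, n = 4 each), a difference of 0.77 (SE 0.54, 95% interval -0.45 to 1.99, adjusted p = 0.998 with limma). The lowest arrays of each group weighed on it in opposite directions, with 0.33 without control 1 and 1.17 without VP16LXRa 5.

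**Figure D1:**
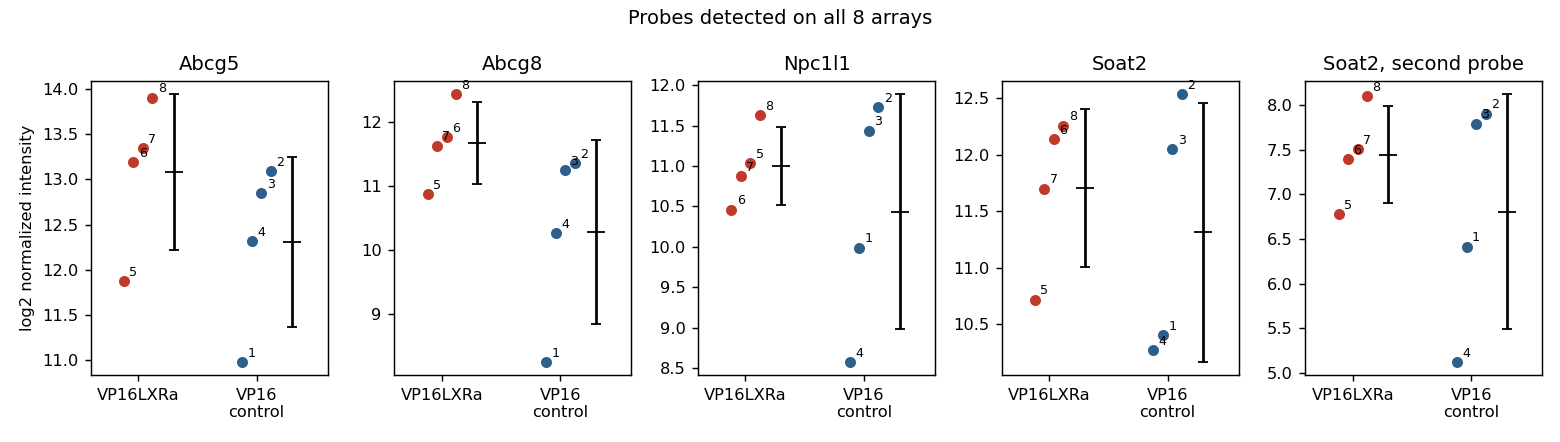
Log2 normalized intensity of the 5 probes detected on all 8 arrays, 1 panel a probe, with VP16LXRa tumours (red, 5 to 8) left of VP16 control tumours (blue, 1 to 4); numbers are the tumours, horizontal bars the means and vertical bars the SD (n = 4 each). For Abcg5 and Abcg8, VP16LXRa tumours 6 to 8 lie above all controls, while for Npc1l1 and the brighter Soat2 probe the highest tumour is control 2 and the controls spread more widely than the VP16LXRa tumours.

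Npc1l1, the brush border importer that ezetimibe blocks, had log2 levels of 11.04, 10.46, 10.87 and 11.63 in VP16LXRa tumours 5 to 8, against 9.99, 11.73, 11.44 and 8.57 in control tumours 1 to 4. The VP16LXRa tumours lay close together, and the controls split into a low pair (1 and 4) and a high pair (2 and 3) that enclosed most of them. The means were 11.00 ± 0.48 in VP16LXRa and 10.43 ± 1.45 in control tumours (SD, n = 4 each), a difference of 0.57 (SE 0.64, 95% interval -0.88 to 2.01, adjusted p = 0.998 with limma). Without control 4 it was -0.053. The deposited table gives neither a definition nor a chromosome for this probe or for that of Abcg1.

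Soat2, the enzyme that esterifies absorbed cholesterol, was measured by 2 probes that put the tumours in a similar order, with a correlation of 0.907 over the 8 arrays as a description of 2 readings of 1 gene. On the brighter probe it had log2 levels of 10.72, 12.14, 11.70 and 12.26 in VP16LXRa tumours 5 to 8, against 10.40, 12.53, 12.05 and 10.27 in control tumours 1 to 4. The same control pair, 1 and 4, was low, VP16LXRa 5 stood near it, and the groups overlapped throughout. The difference was 0.39 (SE 0.57, 95% interval -0.89 to 1.67), with means of 11.70 ± 0.70 in VP16LXRa and 11.31 ± 1.15 in control tumours (SD, n = 4 each). The dimmer probe differed by 0.64 (SE 0.60), with 7.44 ± 0.54 in VP16LXRa and 6.81 ± 1.31 in control tumours (SD, n = 4 each). Both had an adjusted p of 0.998 with limma. Without control 4 the differences of the 2 probes were 0.041 and 0.075, and without background correction the dimmer one differed by 0.26.

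The remaining genes were close to the detection limit, so their raw bead signal is given. On each array the lowest signal that counted as detected lay between 134 and 164. Arl4c had signals of 114, 182, 204 and 136 in VP16LXRa tumours 5 to 8, against 166, 183, 199 and 304 in control tumours 1 to 4. It was detected on 2 of 4 VP16LXRa arrays (6 and 7) and on all 4 control arrays, and control 4 was the highest. The log2 means were 5.35 ± 1.03 in VP16LXRa and 6.40 ± 0.66 in control tumours (SD, n = 4 each), a difference of -1.04 (SE 0.52, 95% interval -2.22 to 0.13, adjusted p = 0.998 with limma, unadjusted p = 0.0754). Its sign, opposite to that of Abcg5 and Abcg8, held without each array in turn, between -1.48 (without VP16LXRa 7) and -0.72 (without control 4). Its size depended on the processing, with -0.38 without background correction and -0.62 with an offset of 50, and it was -0.55 with array weights.

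Abcg1 had signals of 150, 157, 146 and 145 in VP16LXRa tumours 5 to 8, against 154, 211, 157 and 149 in control tumours 1 to 4. It was detected on all 4 VP16LXRa arrays and on 2 control arrays (1 and 2), and control 2 stood above the other 7. These counts lay close to the cutoff of 0.05. The detection p was 0.040, 0.036 and 0.048 in VP16LXRa 6 to 8, and 0.051 in control 4. With a detection p under 0.01 required, Abcg1 was not tested. The log2 means were 5.31 ± 0.47 in VP16LXRa and 5.56 ± 0.82 in control tumours (SD, n = 4 each), a difference of -0.25 (SE 0.42, adjusted p = 0.998 with limma), or 0.13 without control 2 and -0.096 without background correction.

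Abca1, the exporter to nascent HDL, was detected only in control 2, with a signal of 154. Its signals were 119, 147, 138 and 139 in VP16LXRa tumours 5 to 8, against 125, 154, 142 and 138 in control tumours 1 to 4, and its probe was not tested. Scarb1 signals ran from 114 to 143 over the 8 arrays, with a detection p of at least 0.10, and those of Mylip from 124 to 146 on the brighter probe and from 122 to 145 on the dimmer one. Not being well above background says that these probes gave no measurable level here, and no fold is given for them.

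**Figure D2:**
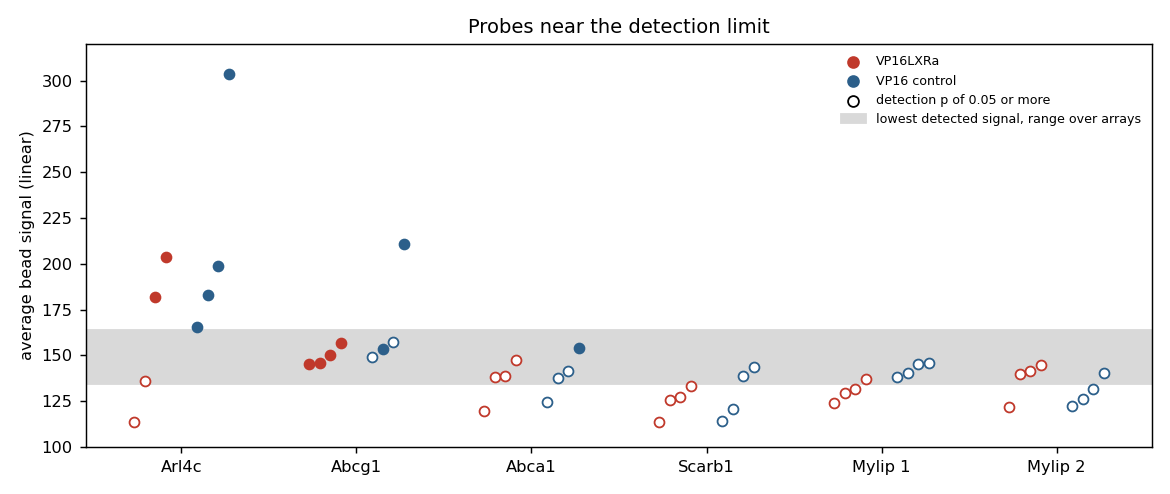
Average bead signal (linear scale, axis not from 0) of the 6 probes near the detection limit, with VP16LXRa arrays (red) left of VP16 control arrays (blue); filled points were detected, open points were not, and the grey band runs from 134 to 164, the lowest detected signal over the 8 arrays. Arl4c is detected on 2 VP16LXRa and 4 control arrays, Abcg1 on 4 and 2, Abca1 on 1 control array, and Scarb1 and Mylip (2 probes) on none.

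**Figure D3:**
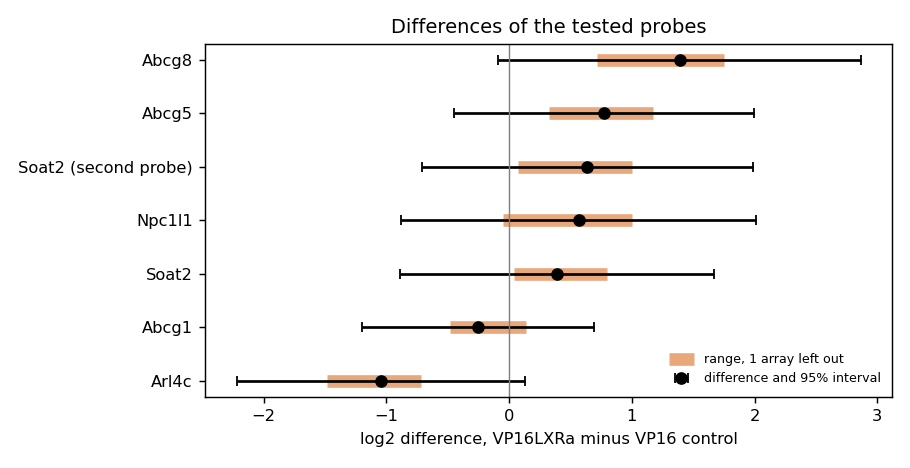
Log2 difference (VP16LXRa minus VP16 control) of the 7 tested probes, with points for the estimate, black bars for its 95% interval from limma and orange bars for the range when 1 array is left out. All 7 intervals include 0, and the orange bars of Npc1l1 and Abcg1 cross it.

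Whether the genes of the group varied together between tumours was examined for all 15 pairs of the 6 tested genes, with exact permutation tests. Abcg5 and Abcg8 had a Pearson correlation of 0.940 over the 8 arrays (permutation p = 0.000769, adjusted p = 0.0115 over the 15 pairs) and a Spearman correlation of 0.952 (permutation p = 0.00114, adjusted p = 0.0171). Without the 2 tumours farthest from the median of Abcg5, control 1 and VP16LXRa 5, it was 0.979, and between deviations from the group means it was 0.937. With single arrays left out it ranged from 0.886 (without control 1, adjusted exact permutation p = 0.150) to 0.994 (without VP16LXRa 5), and without VP16LXRa 8 it was 0.925 (adjusted exact permutation p = 0.0923).

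The other pairs did not pass. Soat2 correlated with Abcg5 at 0.822 and with Abcg8 at 0.773 (adjusted exact permutation p = 0.0534 for both), with Spearman correlations of 0.690 (permutation p = 0.0694, adjusted p = 0.260) and 0.786 (permutation p = 0.0279, adjusted p = 0.140). With Npc1l1 it correlated at 0.782 (adjusted exact permutation p = 0.0544; Spearman 0.833, permutation p = 0.0154, adjusted p = 0.115), which dropped to 0.387 without controls 1 and 4. Npc1l1 and Abcg5, the importer and the pump, correlated at 0.495 (exact permutation p = 0.216, adjusted p = 0.463; Spearman 0.452, permutation p = 0.267, adjusted p = 0.669). Control 4 held the lowest Npc1l1 level of all tumours beside a middling Abcg5 level, and control 1 held the lowest levels of Abcg5 and Abcg8.

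**Figure D4:**
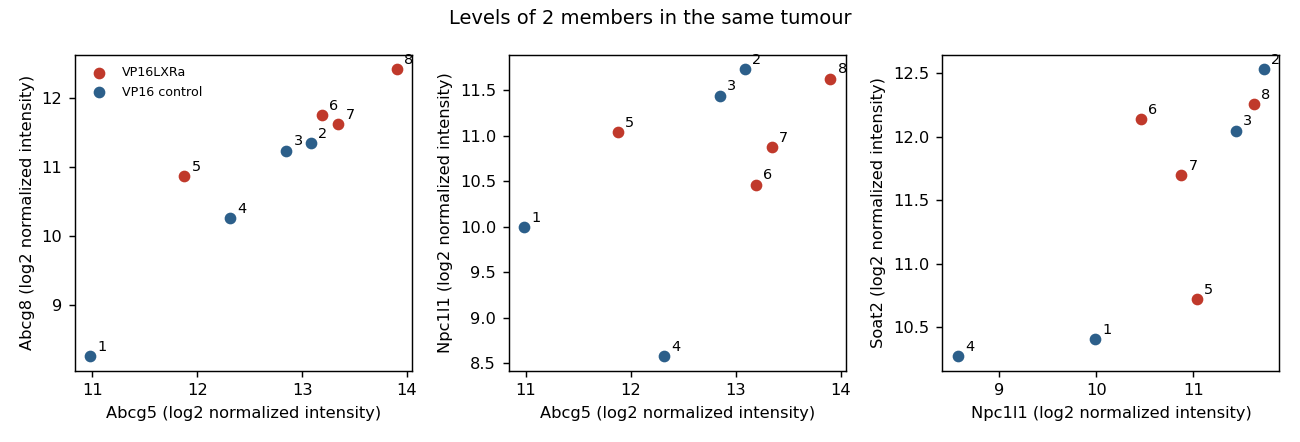
Log2 normalized intensities of 2 genes in the same tumour, 1 point an array, VP16LXRa in red and VP16 control in blue, numbers the tumours. Abcg8 follows Abcg5 along a line, with control 1 at the low end and VP16LXRa 8 at the high end, Npc1l1 against Abcg5 scatters, and Soat2 follows Npc1l1 largely through controls 1 and 4.

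The probes whose levels most resembled each of these 4 genes were ranked by the correlation of deviations from the group means over 8 arrays, a description with no test because the highest of 13426 were taken. For Abcg5 they were Gal3st2 (0.960), Tprkb (0.959) and Myo7a (0.958), and for Abcg8 Anxa13 (0.985), an intestinal annexin, AI427809 (0.960) and Sfxn1 (0.949). Abcg5 and Abcg8, at 0.937 with each other on this measure, were thus not among the closest probes of one another. For Npc1l1 they were Sgpl1 (0.997), the sphingosine-1-phosphate lyase, Sult2b1 (0.993), a cholesterol sulphotransferase, and Ankzf1 (0.992). For Soat2 they were Cyp4v3 (0.988), Fcho2 (0.979) and Abhd3 (0.978). Of these 12 probes none had an unadjusted p under 0.05 for the group difference.

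The labelled tissue was checked against epithelial markers. Of 8 genes of the intestinal epithelium, 7 were found on the array and all 7 were tested, among them Cdx1 and Cdx2, the intestinal identity factors, both detected on 8 arrays. All 7 averaged lower in VP16LXRa tumours, with a median of -0.31 and 0 at an unadjusted p under 0.05. Of 4 ileal enterocyte genes, Fabp6, Slc51a and Slc51b were detected on all 8 arrays, with Fabp6, the ileal bile acid binding protein, at 14.58 ± 0.54 in VP16LXRa and 14.62 ± 0.36 in control tumours (SD, n = 4 each), and Slc10a2, the ileal bile acid transporter, was detected on none. The 3 tested ileal markers averaged lower in VP16LXRa tumours, with a median of -0.16. Of 6 hepatocyte genes, Alb and Apoh were detected on no array and 2 were tested. Ttr, detected on all 8 arrays, was at 6.97 ± 0.56 in VP16LXRa and 7.28 ± 1.17 in control tumours (SD, n = 4 each), and Serpina1a, detected on 4 arrays, at 4.88 ± 0.41 in VP16LXRa and 5.32 ± 0.46 in control tumours (SD, n = 4 each). Of 12 macrophage genes, the cells in which Abca1 and Abcg1 are also active, 11 were tested, with 2 higher in VP16LXRa tumours and 9 lower, a median of -0.19 and a mean log2 level from 7.41 to 7.89 in VP16LXRa and from 7.15 to 8.25 in control tumours, the highest being controls 2 and 4. All 6 smooth muscle markers averaged higher in VP16LXRa tumours, with a median difference of 1.30 and 0 at an unadjusted p under 0.05. Their mean log2 level ran from 10.38 to 11.29 in VP16LXRa tumours, against 10.60, 10.87, 6.99 and 9.80 in control tumours 1 to 4. The smallest difference of each marker with single arrays left out lay between 0.049 (Acta2) and 0.54 (Tagln). The part of macrophage and smooth muscle RNA in the differences above was not tested.

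Abcg5, Abcg8, Npc1l1 and Soat2 work in absorptive enterocytes, so markers of these cells are given beside them. Of 16 such markers, 14 were found and 11 tested, and Fabp1 and Fabp2 were detected on no array. Their mean log2 level was 11.29, 11.59, 11.39 and 12.10 in VP16LXRa tumours 5 to 8, against 10.42, 12.13, 12.30 and 9.85 in control tumours 1 to 4. Controls 1 and 4 were thus lowest, as they were for Npc1l1 and Soat2, and controls 2 and 3 highest. Controls 1 and 4 were also lowest for Abcg8, at 8.26 and 10.26, but for Abcg5 VP16LXRa 5 lay below control 4. Unlike the marker mean, both genes had control 4 above control 1, and VP16LXRa 7 and 8 above controls 2 and 3. VP16LXRa 7 was second highest for Abcg5. Of the 11 tested markers 9 averaged higher and 2 lower in the VP16LXRa group, with a median difference of 0.39 and 0 at an unadjusted p under 0.05, and Apoa4 differed most, by 1.40 (SE 0.78). In bulk tumours, fewer enterocytes and less RNA per enterocyte cannot be told apart.

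The genes were also set against the mean of the 11 enterocyte markers within each array, and against each other. These 8 measures were chosen after the data were seen, and were compared by exact two-sided permutation tests, where 4 arrays against 4 cannot go below p = 0.0286. Relative to the markers, Abcg8 stood at -0.41, 0.17, 0.24 and 0.32 in VP16LXRa tumours 5 to 8, against -2.16, -0.78, -1.06 and 0.41 in control tumours 1 to 4. All VP16LXRa tumours exceeded controls 1 to 3, and control 4 exceeded them all. The difference between the group means was 0.98 (exact permutation p = 0.143, adjusted p = 0.571 over the 8 measures), 0.55 without control 1 and 1.41 without control 4. Abcg5 relative to the markers differed by 0.36 (exact permutation p = 0.457), or 0.80 without control 4, Npc1l1 by 0.15 (exact permutation p = 0.629) and Soat2 by -0.027 (exact permutation p = 0.971).

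The 2 subunits of the pump were compared in the same way. Abcg8 minus Abcg5 was -1.01, -1.43, -1.72 and -1.48 in VP16LXRa tumours 5 to 8, against -2.73, -1.73, -1.61 and -2.05 in control tumours 1 to 4. The level of 1 probe cannot be set against another, so only the change of this value between tumours has a meaning. It was higher by 0.62 in VP16LXRa tumours (exact permutation p = 0.0571, adjusted p = 0.457), with means of -1.41 ± 0.30 in VP16LXRa and -2.03 ± 0.50 in control tumours (SD, n = 4 each), and by 0.39 without control 1. Abcg8 minus Npc1l1, the pump against the importer, differed by 0.82 (exact permutation p = 0.314), or 0.30 without control 1 and 1.44 without control 4. Abcg5 minus Npc1l1 differed by 0.20 (exact permutation p = 0.857), -0.091 without control 1 and 0.83 without control 4.

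**Figure D5:**
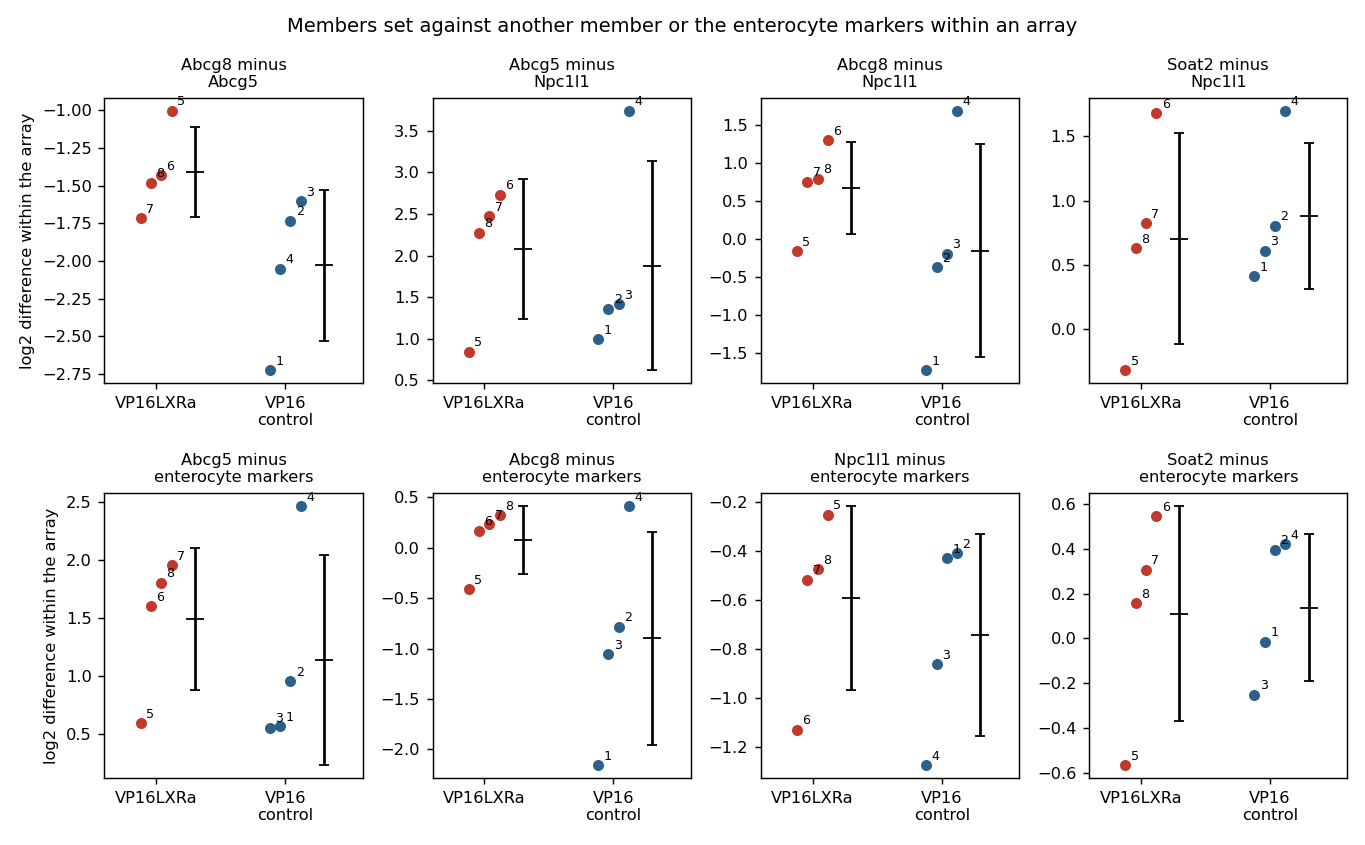
Log2 difference within each array between 2 genes (upper row) or between a gene and the mean of the 11 tested enterocyte markers (lower row), with VP16LXRa tumours (red) left of VP16 control tumours (blue), numbers the tumours, and bars the mean and SD (n = 4 each). Groups overlap in all 8 panels, and for Abcg8 minus the enterocyte markers the overlap is due to control 4, which lies above the 4 VP16LXRa tumours.

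Of 19 other LXR targets chosen, 17 were found and 14 tested, with 9 higher in the VP16LXRa group, 5 lower and a median difference of 0.23. Among the 9 was Nr1h3, the gene of LXRα, which the transgene also carries. Whether its probe reads the transgene was not tested. None of the 14 passed the adjusted threshold, and 1 had an unadjusted p under 0.05 (2.5% of all tested probes did). That was Scd1, the stearoyl-CoA desaturase, followed by Srebf1, the inducer of fatty acid synthesis, at 1.34 (SE 0.68) and Elovl6, a fatty acid elongase, at 0.32 (SE 0.26). Scd1 was at 12.83 ± 1.09 in VP16LXRa and 10.59 ± 2.05 in control tumours (SD, n = 4 each), a difference of 2.24 (SE 0.95), between 1.37 and 3.05 with single arrays left out.

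Genes that handle sterols inside the cell and in lipoproteins were split in direction. Of 33 chosen, 29 were found and 25 tested, with 11 higher and 14 lower and a median of -0.068. Apoa1 and Apoa4, apolipoproteins of enterocytes that are also among the markers above, differed by 0.50 (SE 0.25) and 1.40 (SE 0.78).

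Among the other transporters of the ABCA and ABCG families, 18 were found, 8 were tested and 6 were detected on no array. Of the 8, 4 averaged higher and 4 lower, with a median of -0.016. Abca3, a phospholipid transporter known from lung surfactant, was at 10.02 ± 0.20 in VP16LXRa and 9.51 ± 0.12 in control tumours (SD, n = 4 each), a difference of 0.51 (SE 0.20, unadjusted p = 0.0281 with limma). Its groups did not overlap, as for 1.01% of tested probes in that direction, and its difference kept between 0.44 and 0.58 with single arrays left out. Abca17 differed by -0.43 (SE 0.27) and Abcg4 by 0.41 (SE 0.31).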

How the data were processed

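The members and gene lists were chosen with earlier results of these data known. The authors deposited a scanner table with the average bead signal of each probe, a linear intensity, and its detection p-value, per the file headers, made with GenomeStudio, per the submitters' processing notes. From their values, the second deposited table holds background-subtracted, quantile-normalized intensity values of the same arrays. It served as an alternative, with a floor of 16 before log2. The sources used here name neither the type of BeadChip nor its annotation release. Gene symbols are those of the deposited table, and older symbols of listed genes were found through RefSeq synonyms (GRCm38.p6).

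Signals were corrected by normexp with negative controls inferred from detection p-values (offset 16), quantile normalized and put on a log2 scale with limma 3.58.1 in R 4.3.3 (statmod 1.5.0). Those probes that reached a detection p under 0.05 on 4 or more of the 8 arrays entered lmFit and eBayes (two-sided, Benjamini-Hochberg adjusted). Only the lmFit and eBayes step was tested on simulated log2 values. Background correction, normalization and the detection filter were not part of that simulation. All probes of the 9 genes are named. A list is represented by its brightest tested probe per gene, and its genes with an unadjusted p under 0.05 are named, or the 3 with the smallest p. A gene of the sterol handling list is not reported here. Alternatives covered background, offset, normalization, filter, array weights, variance prior, choice of probe, threshold and each array left out. The number of arrays limits the precision.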

Additional observations from a re-analysis of the deposited data

Results flagged for a closer look

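In 56 sets of 4 arrays (each probe, within-array difference and list level in each group), 1 value lay far from the other 3 by Dixon's test, where chance gives about 2.8. It was Abcg5 minus Npc1l1 in control 4, at 3.74, against 0.99 to 1.41 in the other 3 controls. In that tumour Npc1l1 was the lowest of all 8 at 8.57, Abcg5 was at 12.32, and the enterocyte markers averaged 9.85.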

How the results depend on the processing

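No probe of these genes passed the adjusted threshold under any of the alternatives, nor at an adjusted p under 0.1. Some unadjusted p-values from limma fell under 0.05, picked from the 7 probes over many alternatives. The share of all tested probes under 0.05 was given only for the main setting, so these values have no such share beside them. With array weights the unadjusted p-values were 0.017 for Abcg8 and 0.033 for Abcg5 (adjusted p = 0.76 with limma for both). Without VP16LXRa 5 they were 0.043 and 0.041 (adjusted p = 0.9999 with limma for both). Abcg8 had 0.031 without control 2 and 0.037 without control 3, and Arl4c had 0.0097 without VP16LXRa 7. Over all probes, 1 passed with cyclic loess, 2 with array weights and between 0 and 2 with single arrays left out, none of them from this group. The directions of Abcg5, Abcg8, both Soat2 probes and Arl4c held under every alternative in which they were tested, with ranges of 0.33 to 1.18 for Abcg5, 0.72 to 1.84 for Abcg8 and -1.48 to -0.38 for Arl4c. Those that turned with single arrays left out were Abcg1 (-0.48 to 0.13), Npc1l1 (-0.053 to 1.00), Abcg5 minus Npc1l1 (-0.091 to 0.83), Soat2 minus Npc1l1 (-0.50 to 0.16), Npc1l1 minus the enterocyte markers (-0.026 to 0.33) and Soat2 minus those markers (-0.17 to 0.20). The median of the tested genes was -0.046 with all probes, where the 3 genes near background enter, and 0.67 with probes detected on all 8 arrays, and ranged from -0.0059 to 0.90 with single arrays left out. With single arrays left out, the smallest permutation p of a within-array difference was 0.0286, the smallest that 4 against 3 can give, for Abcg8 minus Abcg5 (0.76 without control 3) and Abcg8 minus the enterocyte markers (1.41 without control 4). It is the smallest over 8 measures and 8 arrays left out, and is not adjusted. In both cases the array left out was the highest control, and the groups did not overlap without it, which fixes this p. With all 8 arrays the adjusted exact permutation p was 0.457 and 0.571. Of the 15 pairs, 4 passed with median scaling and 2 with cyclic loess, against 1, and between 0 and 2 passed with single arrays left out. The cause of these changes was not tested. A block for the BeadChip was not run because no file names one. No paired analysis was possible because the groups share no replicate number. Abca1, Scarb1 and Mylip had too little signal over background to be compared.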
